A study of Rattus norvegicus with 12 samples.

Results

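Genes of mitochondrial dynamics and of mitochondrial genome maintenance were followed in the left ventricle of rats with myocardial infarction. The set was drawn by gene symbol as 9 genes, Mfn1, Mfn2, Opa1, Dnm1l, Fis1, Tfam, Polrmt, Polg and Nrf1. A row was matched for 8 of them among the 34599 rows of the count table, and Mfn2 was not analysed here. All 8 genes had enough counts for testing, and none overlapped another annotated gene. RNA-seq of total RNA was made from 12 male SD rats with no genetic change named, 4 each in the Sham, MI and iCarP+/Light+ groups, with tissue taken 1 day after surgery. Sham rats had the chest opened without ligation, whereas MI and iCarP+/Light+ rats both had the left anterior descending coronary artery tied. iCarP+/Light+ rats also had Chlorella, a unicellular alga that makes oxygen in light, injected into the infarct, and the light-guiding patch iCarP was glued over it and lit. The alga, the patch, the glue and the light therefore cannot be told apart in the comparison with MI rats, and iCarP+/Light- rats were not analysed here. The labels describe infarct tissue for every sample, so the region taken from Sham hearts, which had no infarct, is not given.

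Mitochondria fuse and divide continually. Outer membranes are joined by mitofusins such as Mfn1 and inner membranes by Opa1, whereas the dynamin GTPase Dnm1l, helped by adaptors on the outer membrane such as Fis1, pinches the organelle apart. The mitochondrial genome is packaged by Tfam, transcribed by the polymerase Polrmt and copied by the polymerase Polg, all of which are encoded in the nucleus. Nrf1, nuclear respiratory factor 1, is a transcription factor that drives nuclear genes for respiration and for mitochondrial transcription. The heart depends on these systems because cardiomyocytes are densely filled with mitochondria.

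Because Nrf1 and the ETS factor GA-binding protein are both known for acting on nuclear genes of the mitochondrion, the promoters of the set were searched for the letters that these factors recognise. Promoter sequences from RefSeq (build GRCr8, 250 bases before to 50 after each start) were found for all 8 genes, with 2 promoters for Fis1. The letters TGCGCA, which lie in the NRF1 palindrome and read the same on both strands, occurred in promoters of 2 of the 8 genes, Fis1 and Polrmt, and in 7.24% of all 33469 rat promoters of this length. The letters CCGGAAGT, an ETS core, were searched on both strands and occurred in promoters of 4 of the 8 genes, Mfn1, Fis1, Tfam and Polg, and in 3.81% of all promoters. In the windows shown here the motif is in capitals, and each window is read along the gene's own strand. In MI against Sham, the genes with a CCGGAAGT window were called lower (Mfn1), not called (Tfam) and called higher (Polg). Both genes with a TGCGCA window, Fis1 and Polrmt, were called lower.
Mfn1 (GRCr8 chr2:117241710-117241749, + strand): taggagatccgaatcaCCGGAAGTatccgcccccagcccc
Tfam (GRCr8 chr20:17355301-17355340, + strand): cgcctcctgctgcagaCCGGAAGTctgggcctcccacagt
Polg (GRCr8 chr1:142808936-142808975, - strand): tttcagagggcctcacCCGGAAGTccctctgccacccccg
Fis1 (GRCr8 chr12:25360138-25360175, - strand): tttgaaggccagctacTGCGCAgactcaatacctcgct
Polrmt (GRCr8 chr7:10610042-10610079, + strand): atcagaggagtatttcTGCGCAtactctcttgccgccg
Relative to the start of each gene, the motif began at -32 in Mfn1, -56 in Tfam, -121 in Polg, -116 in Fis1 and -138 in Polrmt. A further TGCGCA of Polrmt at -1 and the CCGGAAGT of Fis1, in its other promoter at 1, are not shown. Such a match is a description of these letters and is neither a binding site nor a cause. Opa1, Dnm1l and Nrf1 held neither motif in this window.

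Libraries held 14064414 to 17136958 counts, and single members held between 214 counts (Polrmt in iCarP+/Light+ rat 5) and 3459 counts (Mfn1 in Sham rat 3). The whole library changed with infarction. Genes of the mitochondrial genome took 22.8 to 28.9% of the counts of Sham rats, 8.52 to 11.5% of those of MI rats and 7.14 to 14.2% with iCarP+/Light+. Summed over 13 cardiomyocyte markers, the level was 68033 to 72828 CPM (counts scaled by TMM to a common library size) in Sham, 4469 to 9087 CPM in MI and 3937 to 10513 CPM with iCarP+/Light+. All 13 markers fell in MI against Sham, with a median log2 fold change of -3.21, and none was at 0 in any rat. Summed over 11 leukocyte markers, the level was 350 to 571 CPM in Sham, 4163 to 7241 CPM in MI and 6088 to 10702 CPM with iCarP+/Light+. Of these, 9 rose in MI against Sham and none fell, with a median log2 fold change of 3.07, and none was at 0 in any rat. In such bulk tissue, fewer cells of a type and less RNA per cell cannot be told apart, and the part of the marker changes in the results that follow was not tested.

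Infarction was accompanied by lower RNA of the fusion genes Mfn1 and Opa1, the fission genes Dnm1l and Fis1 and the polymerase Polrmt, and by higher RNA of Polg and Nrf1, whereas Tfam did not pass the test. All p-values are from the quasi-likelihood test of edgeR, fitted to 15101 genes and adjusted over them by Benjamini-Hochberg, and a gene passed below 0.05. In MI against Sham, 7 of the 8 members passed, 2 higher and 5 lower, while 63.8% of all genes tested passed, 30.2% higher and 33.6% lower. The rats of both groups did not overlap for the same 7 members, and for 59.0% of all genes. The median log2 fold change of the 8 members was -0.68, against -0.06 over all genes. Most genes of the tissue thus changed with infarction, and a count of members is to be read against that background.

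Mfn1 (ENSRNOG00000011057, rn6 chromosome 2, 118929738 to 118973698, + strand) had the largest change of the set in MI against Sham with TMM, and Polg (1.19) and Nrf1 (1.18) changed more than Mfn1 (-0.95) with total counts alone. Its level was 229.8, 228.3, 262.6 and 225.3 CPM in Sham rats 1, 2, 3 and 5. It was 79.2, 85.5, 83.5 and 79.4 CPM in MI rats 1, 3, 4 and 5, and 91.3, 89.1, 69.4 and 69.5 CPM in iCarP+/Light+ rats 1, 2, 4 and 5. Every infarcted heart lay far below every Sham heart, and the levels of both infarcted groups overlapped. Mfn1 fell 2.89-fold in MI against Sham, with a log2 fold change of -1.53 (standard error, SE, 0.116, adjusted p = 2.81e-07, edgeR).

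Opa1 (ENSRNOG00000001717, rn6 chromosome 11, 74720254 to 74793803, - strand) fell together with Mfn1. Its level in the rats, in the same order, was 129.2, 143.8, 159.9 and 127.1 CPM in Sham, 68.8, 60.7, 59.2 and 60.4 CPM in MI, and 68.1, 60.1, 52.0 and 55.6 CPM in iCarP+/Light+. All Sham hearts were above all infarcted hearts, which again overlapped between their groups. The decrease in MI against Sham was 2.25-fold, a log2 fold change of -1.17 (SE 0.113, adjusted p = 1.75e-06, edgeR).

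The fission genes had smaller log2 fold changes, and neither passed the test with total counts alone (Dnm1l -0.07, adjusted p = 0.624, and Fis1 -0.13, adjusted p = 0.431, edgeR). Dnm1l (ENSRNOG00000001813, rn6 chromosome 11, 88830957 to 88880198, + strand) was at 88.2, 88.4, 107.6 and 85.7 CPM in Sham, 63.3, 60.3, 51.1 and 59.8 CPM in MI, and 64.6, 57.0, 61.0 and 52.3 CPM in iCarP+/Light+ rats. Sham rats were again all higher, and Sham rat 3 was the highest of them as it was for Mfn1. Dnm1l fell 1.58-fold in MI against Sham, with a log2 fold change of -0.66 (SE 0.110, adjusted p = 1.68e-04, edgeR). Fis1 (ENSRNOG00000001420, rn6 chromosome 12, 22750485 to 22765308, - strand) was at 114.7, 108.7, 86.3 and 95.9 CPM in Sham, 57.8, 60.2, 81.3 and 50.0 CPM in MI, and 65.7, 61.5, 51.6 and 53.5 CPM in iCarP+/Light+ rats. MI rat 4 came close to the lowest Sham rat without reaching it. The decrease of Fis1 was 1.63-fold, a log2 fold change of -0.70 (SE 0.152, adjusted p = 0.00124, edgeR).

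**Figure D1:**
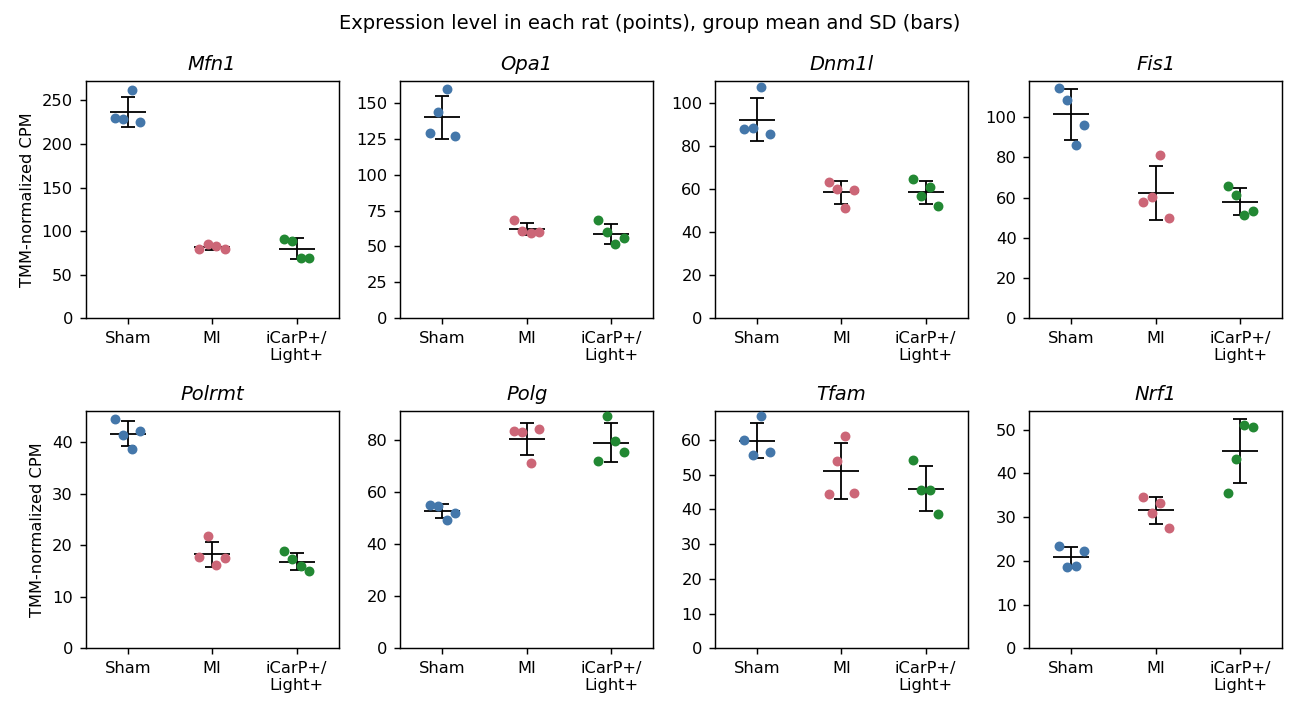
Expression level of each gene in TMM-normalized CPM (vertical axis, from 0) in each of 12 rats, 4 per group (points), with the group mean and SD (bars). Sham rats stand above all infarcted hearts for Mfn1, Opa1, Dnm1l, Fis1 and Polrmt and below them for Polg and Nrf1, and the groups overlap for Tfam in Sham and MI.

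The genes that serve the mitochondrial genome did not move as a block. Polrmt (ENSRNOG00000024879, rn6 chromosome 7, 12840938 to 12851153, + strand), the RNA polymerase, was at 44.6, 41.4, 38.7 and 42.3 CPM in Sham, 17.7, 21.7, 16.2 and 17.5 CPM in MI, and 19.0, 17.4, 16.1 and 15.1 CPM in iCarP+/Light+ rats. No infarcted heart reached the Sham range. Polrmt fell 2.28-fold in MI against Sham, with a log2 fold change of -1.19 (SE 0.116, adjusted p = 1.83e-06, edgeR). Polg (ENSRNOG00000032293, rn6 chromosome 1, 141172531 to 141188031, - strand), the DNA polymerase, was at 55.1, 54.6, 49.3 and 52.0 CPM in Sham, 83.5, 83.3, 71.3 and 84.4 CPM in MI, and 72.0, 89.3, 79.7 and 75.4 CPM in iCarP+/Light+ rats. Here every infarcted heart was above every Sham heart, with MI rat 4 the lowest of its group. Polg rose 1.53-fold, a log2 fold change of 0.61 (SE 0.098, adjusted p = 1.18e-04, edgeR).

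Tfam (ENSRNOG00000000613, rn6 chromosome 20, 18594037 to 18606151, + strand), which coats and compacts the mitochondrial genome, was at 60.0, 55.7, 66.9 and 56.5 CPM in Sham, 44.4, 53.9, 61.1 and 44.7 CPM in MI, and 54.2, 45.5, 45.7 and 38.7 CPM in iCarP+/Light+ rats. MI rat 4 lay within the Sham range, while the other MI rats lay below it. The log2 fold change in MI against Sham was -0.23 (95% interval -0.51 to 0.06, adjusted p = 0.146, edgeR), an interval that spans a decrease, no change and a small rise. With total counts alone it was 0.35 and passed in the other direction (adjusted p = 0.0301, edgeR). With TMM and without MI rat 4 it was -0.32 (adjusted p = 0.0437, edgeR). In iCarP+/Light+ against Sham it was -0.38 (SE 0.132, adjusted p = 0.0224, edgeR), but not past the threshold without iCarP+/Light+ rat 5 (-0.27, adjusted p = 0.104) or without Sham rat 3 (-0.32, adjusted p = 0.0695).

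Nrf1 (ENSRNOG00000008752, rn6 chromosome 4, 57378069 to 57445341, + strand) was lowest in Sham and highest in iCarP+/Light+ rats. Its level was 23.3, 18.6, 18.9 and 22.3 CPM in Sham rats, 34.6, 31.1, 33.2 and 27.6 CPM in MI rats, and 35.6, 43.2, 51.1 and 50.7 CPM in iCarP+/Light+ rats. The groups were stacked without overlap, although iCarP+/Light+ rat 1 lay only just above MI rat 1. In MI against Sham, Nrf1 rose 1.52-fold, with a log2 fold change of 0.60 (SE 0.136, adjusted p = 0.00165, edgeR).

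With the lit patch and the alga, the fusion, fission and genome genes overlapped those of MI rats, and Nrf1 alone among the members passed the test. In iCarP+/Light+ against MI, 1 of the 8 members passed and was higher, none was lower, and 1 did not overlap between the groups. Over all genes tested, 13.6% passed, 11.6% higher and 2.01% lower, and 16.4% did not overlap. The median log2 fold change of the members was -0.06, against 0.01 over all genes. Nrf1 rose 1.43-fold, a log2 fold change of 0.51 (95% interval 0.22 to 0.80, SE 0.134, adjusted p = 0.0207, edgeR).

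The call of Nrf1 between the infarcted groups depended on which rats were included, on the fit and on the scaling. It was past the threshold in 8 of the 12 fits that each left out 1 rat, and not without MI rat 3 (0.50, adjusted p = 0.0529), MI rat 5 (0.45, adjusted p = 0.0615), iCarP+/Light+ rat 4 (0.45, adjusted p = 0.0691) or iCarP+/Light+ rat 5 (0.38, adjusted p = 0.131). Its direction was the same in all 12. When only the 8 rats of both groups were fitted, the log2 fold change was 0.47 and the adjusted p was 0.0638 (edgeR). It also did not pass with total counts alone (0.25, adjusted p = 0.167) or with the number in the rat's name as a replicate block (0.52, adjusted p = 0.0885, edgeR). Beside it, 5 of 11 leukocyte markers rose and 1 fell in the same comparison, with a median log2 fold change of 0.69, and 4 of 7 red blood cell markers rose and none fell. With total counts alone 5 leukocyte markers rose and 4 fell (median 0.42), beside 1204 higher and 2722 lower of all 15101 genes. The summed red blood cell markers were at 2504 to 6931 CPM in MI and 6184 to 17469 CPM in iCarP+/Light+ rats, with none at 0 in any rat, and their part in the change of Nrf1 was not tested.

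For the other 7 members the 95% intervals of the difference between iCarP+/Light+ and MI are given on the log2 scale, with TMM. They ran from -0.28 to 0.21 for Mfn1, from -0.32 to 0.16 for Opa1, from -0.24 to 0.24 for Dnm1l and from -0.43 to 0.23 for Fis1. For the genome genes they ran from -0.43 to 0.14 for Tfam, from -0.37 to 0.14 for Polrmt and from -0.24 to 0.18 for Polg. With TMM, the decreases of Mfn1, Opa1, Dnm1l, Fis1 and Polrmt seen in MI against Sham were each larger than the upper bound of a rise in iCarP+/Light+ against MI. Adjusted p-values of these 7 genes then lay between 0.54 for Tfam and 0.995 for Dnm1l. With total counts alone, Mfn1 (-0.30), Opa1 (-0.35), Dnm1l (-0.26), Polrmt (-0.38) and Polg (-0.30) lay below the lower bounds of these intervals. Under that scaling Tfam (-0.40) passed (adjusted p = 0.0388, edgeR), while Polrmt (adjusted p = 0.0514) and Opa1 (adjusted p = 0.0521) did not.

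**Figure D2:**
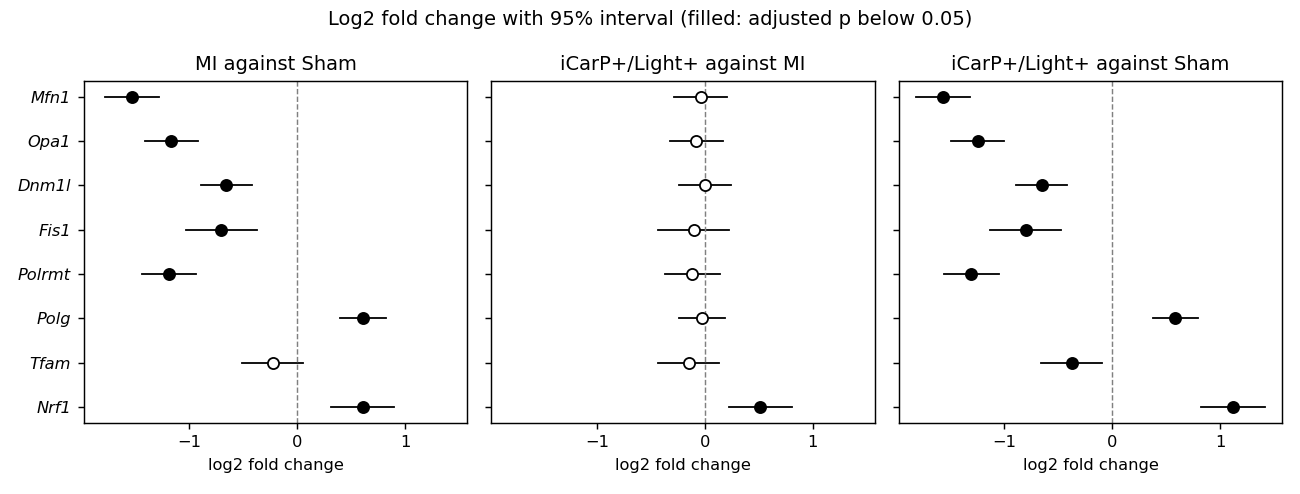
Log2 fold change (horizontal axis) with its 95% interval (line) for each gene in 3 comparisons, filled where the adjusted p of edgeR's quasi-likelihood test was below 0.05. In MI against Sham all but Tfam are filled, in iCarP+/Light+ against MI only Nrf1 is, at 0.51, and in iCarP+/Light+ against Sham all 8 are.

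The comparison of iCarP+/Light+ with Sham shares its rats with the other comparisons and is given for its own values. All 8 members passed, 2 higher and 6 lower, and all 8 did not overlap, but Tfam did not pass with total counts alone. Over all genes 66.5% passed, 33.5% higher and 33.0% lower, and 63.5% did not overlap. Log2 fold changes were -1.57 for Mfn1, -1.25 for Opa1, -0.66 for Dnm1l, -0.80 for Fis1 and -1.31 for Polrmt. They were 0.58 for Polg and 1.12 for Nrf1, the latter a 2.17-fold rise (adjusted p = 1.03e-05, edgeR). The median of the members was -0.73, against 0.02 over all genes.

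The scaling of the libraries bears on the smaller of these changes, because the TMM factors differed between the groups (Sham 0.784 to 0.856, MI 1.15 to 1.26, iCarP+/Light+ 0.960 to 1.05). When libraries were scaled by total counts only, the median over all genes became 0.52 in MI against Sham, -0.25 in iCarP+/Light+ against MI and 0.33 in iCarP+/Light+ against Sham. Of all genes, 7707 were then called higher and 2776 lower in MI against Sham, where TMM gave 4553 and 5080. In iCarP+/Light+ against MI the split was 1204 higher and 2722 lower, where TMM gave 1747 and 304, and in iCarP+/Light+ against Sham it was 6664 and 3639, where TMM gave 5057 and 4988. Under that scaling Mfn1 (-0.95), Opa1 (-0.59) and Polrmt (-0.61) still fell and Polg (1.19) and Nrf1 (1.18) still rose in MI against Sham. Dnm1l and Fis1 no longer passed, and Tfam turned to 0.35 (adjusted p = 0.0301, edgeR). Relative to the median of all genes these 3 were at -0.59, -0.66 and -0.17. Nrf1 in iCarP+/Light+ against MI was at 0.25 (adjusted p = 0.167), which was 0.50 relative to that median, and Tfam passed there at -0.40 (adjusted p = 0.0388). In iCarP+/Light+ against Sham 7 members passed under that scaling, without Tfam (-0.057, adjusted p = 0.716, edgeR), which was -0.39 relative to the median of all genes.

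Ratios of counts within a rat do not depend on the scaling. The log2 ratio of Opa1 to Dnm1l, a fusion and a fission GTPase, was 0.55, 0.70, 0.57 and 0.57 in Sham rats, 0.12, 0.01, 0.21 and 0.01 in MI rats, and 0.08, 0.07, -0.23 and 0.09 in iCarP+/Light+ rats. Sham rats all stood above the infarcted hearts, which overlapped between their groups. The log2 ratio of Tfam to Polrmt was 0.42 to 0.79 with Sham, 1.31 to 1.91 with MI and 1.36 to 1.52 with iCarP+/Light+. Every infarcted heart thus held more Tfam reads per Polrmt read than any Sham heart. A further 2 ratios were chosen after their values were seen. The log2 ratio of Polg to Polrmt was 0.30 to 0.40 with Sham, 1.94 to 2.27 with MI and 1.92 to 2.36 with iCarP+/Light+, which is a mean of 1.26, 4.44 and 4.72 Polg reads per Polrmt read. The log2 ratio of Mfn1 to Opa1 was 0.67 to 0.83 with Sham, 0.20 to 0.50 with MI and 0.32 to 0.57 with iCarP+/Light+.

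**Figure D3:**
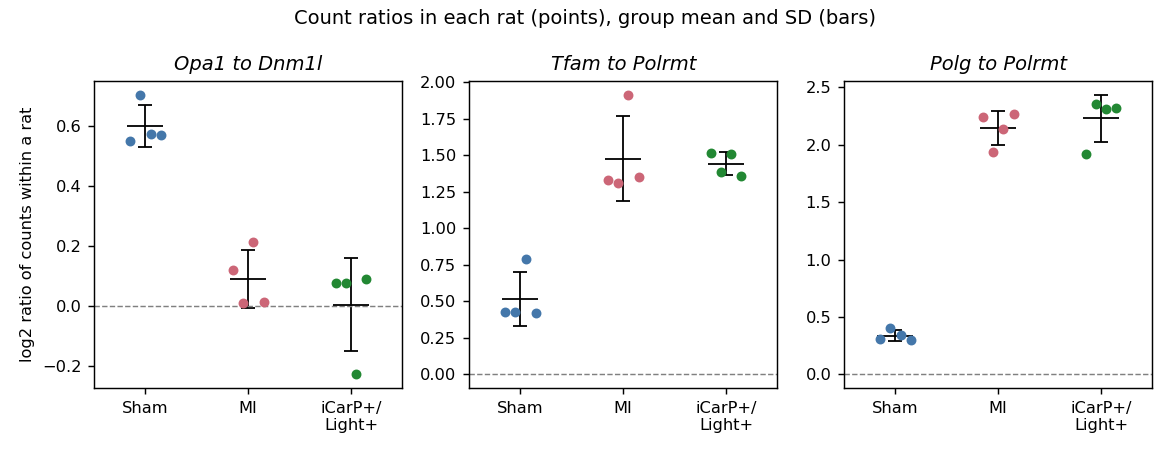
Log2 ratio of the counts of a pair of genes within each of 12 rats (points, 4 per group), with the group mean and SD (bars). Sham rats lie above the infarcted hearts for Opa1 to Dnm1l and below them for Tfam to Polrmt, where they hold between 0.42 and 0.79, and for Polg to Polrmt, where they hold between 0.30 and 0.40.

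Levels of different genes were compared as CPM per kb of the gene length given in the table. In Sham rats the order was Fis1 (82.0 ± 10.3, SD, n = 4), Mfn1 (54.8 ± 4.06), Opa1 (43.2 ± 4.69), Tfam (39.3 ± 3.34), Dnm1l (35.1 ± 3.85), Polg (13.0 ± 0.662), Polrmt (11.1 ± 0.650) and Nrf1 (5.91 ± 0.686). Among neighbours in that order, Opa1 overlapped Tfam and Tfam overlapped Dnm1l. In MI rats the order was Fis1 (50.4 ± 10.8, SD, n = 4), Tfam (33.6 ± 5.27), Dnm1l (22.2 ± 1.99), Polg (19.9 ± 1.55), Opa1 (19.2 ± 1.36), Mfn1 (19.0 ± 0.719), Nrf1 (8.99 ± 0.871) and Polrmt (4.88 ± 0.639). Mfn1 thus went from second to sixth place, and the genes from Dnm1l to Mfn1 overlapped their neighbours. Polrmt and Nrf1 changed places at the foot of the order. In iCarP+/Light+ rats the order was Fis1 (46.9 ± 5.40, SD, n = 4), Tfam (30.3 ± 4.19), Dnm1l (22.3 ± 2.01), Polg (19.5 ± 1.85), Mfn1 (18.5 ± 2.78), Opa1 (18.2 ± 2.14), Nrf1 (12.8 ± 2.09) and Polrmt (4.50 ± 0.454). It differed from that of MI rats in the places of Mfn1 and Opa1, which overlapped in both groups.

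**Figure D4:**
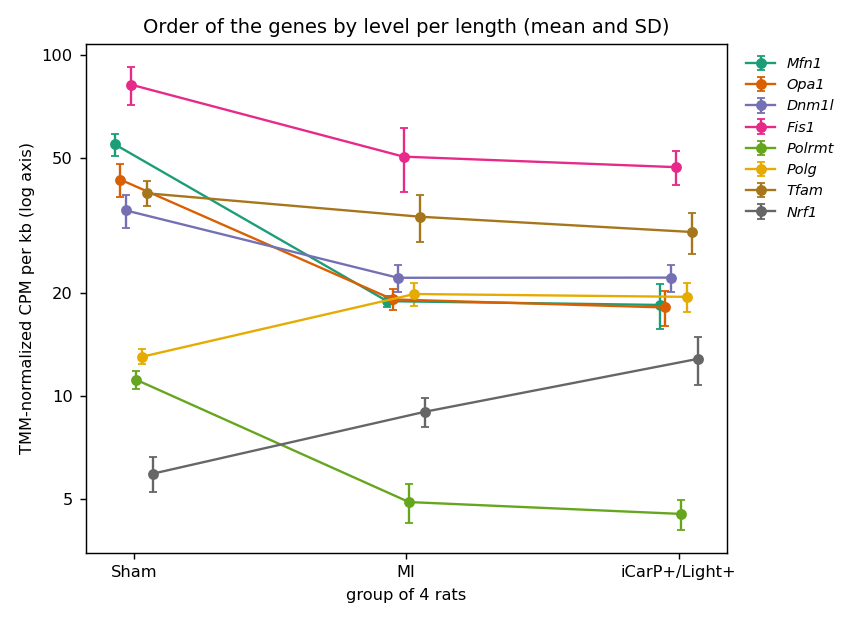
Mean level of each gene in TMM-normalized CPM per kb of gene length (vertical log axis) in the 3 groups of 4 rats, with the SD. Mfn1 goes from 54.8 in Sham to 19.0 in MI and joins Opa1, Polg and Dnm1l, Polrmt and Nrf1 cross, and Fis1 stays on top.

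Other genes of the same pathways were taken from lists, and each list is described by its counts and median. With TMM these are to be read beside the 30.2% of all genes that rose and the 33.6% that fell in MI against Sham. With total counts alone they are to be read beside 7707 of 15101 genes that rose and 2776 that fell. Among 11 fission factors tested, 2 rose and 5 fell in MI against Sham (median log2 fold change -0.75). Mtfp1, an inner membrane protein that promotes fission, went from 61.8 ± 2.41 CPM in Sham to 5.59 ± 1.72 CPM in MI (SD, n = 4 each, log2 fold change -3.47). Mtfr1l fell (-2.08), while the dynamin Dnm2 (0.43) and the actin nucleator Spire1 (1.66) rose. Among 11 genes of fusion and Opa1 processing, 2 rose and 7 fell (median -0.84). The phospholipase Pld6 was at 1.34 ± 0.329 CPM in Sham and 0.162 ± 0.156 CPM in MI (SD, n = 4 each), too few counts for a fold change. Miga2, a fusion factor that partners mitofusins, fell (-1.46), and Oma1, the protease that cleaves Opa1 under stress, rose (0.83) as did Msto1 (0.84).

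All 5 genes of mitochondrial transport fell in MI against Sham (median -1.20), from Trak1 (-2.31) and Trak2 (-1.81), the adaptors that link mitochondria to motors, to Rhot1 (-0.92) and the kinesin Kif5b (-0.65). Of 8 genes that shape cristae, 1 rose and 7 fell (median -1.29). Apoo (-2.29), Chchd3 (-1.74) and Micos10 (-0.92), subunits of the complex at crista junctions, fell, whereas its subunit Chchd6 rose from 5.34 ± 1.07 to 11.3 ± 2.21 CPM (SD, n = 4 each, log2 fold change 1.08). With total counts alone 4 fission genes rose and 4 fell, and 3 fusion genes rose and 4 fell, beside 7707 higher and 2776 lower of all 15101 genes. No transport gene then rose and 4 fell, and 1 cristae gene rose and 6 fell, with Kif5b (-0.067, adjusted p = 0.649) and Micos10 (-0.35, adjusted p = 0.0980, edgeR) not past the threshold. Medians were then -0.17 for fission, -0.26 for fusion, -0.62 for transport and -0.71 for cristae. Relative to the median of all genes they were -0.69, -0.79, -1.14 and -1.24.

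Genes of mitochondrial DNA replication were mixed like Polg and Polrmt. Of 16 tested, 6 rose and 7 fell in MI against Sham (median -0.19), and with total counts alone 7 rose and 2 fell (median 0.40, which was -0.12 relative to all genes). The nuclease Endog (-2.68) and the nucleoside kinase Dguok (-1.52) fell, and the primase Primpol (1.46) and Rnaseh1 (0.87), which removes RNA from hybrids with DNA, rose. Chosen after their values were seen as direct partners of Polg, its accessory subunit Polg2 (-0.70, adjusted p = 0.0220) and the helicase Twnk (-0.78, adjusted p = 4.30e-04, edgeR) fell while Polg rose. With total counts alone neither passed, at -0.13 for Polg2 (adjusted p = 0.646) and -0.20 for Twnk (adjusted p = 0.263, edgeR), which were -0.65 and -0.72 relative to all genes. Of 24 genes of mitochondrial transcription and RNA handling, 1 rose and 15 fell (median -0.48), and with total counts alone 7 rose and 7 fell (median 0.09, which was -0.43 relative to all genes). Mterf2 (-2.34), Fastk (-1.59) and the poly(A) polymerase Mtpap (-0.30) fell, although Mtpap turned to 0.28 with total counts alone (adjusted p = 0.0653, edgeR), and the rRNA methyltransferase Tfb1m (0.40) rose. Tfb2m, the factor that Polrmt needs to open a promoter, was named after its values were seen and fell by 1.20 on the log2 scale.

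All 13 mRNAs encoded in the mitochondrial genome fell in MI against Sham, under each of 4 scalings and tools (median -1.98). The log2 fold changes of ND4 (-2.25) and ND4L (-2.12) were the lowest and those of ND2 (-1.73) and ATP8 (-1.64) among the highest of this list. Their summed level was 261406 to 361692 CPM in Sham, 66936 to 91379 CPM in MI and 70178 to 131822 CPM in iCarP+/Light+ rats. Infarcted groups overlapped in this sum and both lay below Sham rats. Of 15 regulators of mitochondrial biogenesis other than Nrf1, 2 rose and 9 fell (median -0.94), and with total counts alone 6 rose and 8 fell (median -0.37, which was -0.89 relative to all genes). Perm1, a muscle regulator of oxidative genes, went from 256.7 ± 18.3 CPM in Sham to 5.84 ± 3.56 CPM in MI (SD, n = 4 each, log2 fold change -5.46). The fatty acid sensor Ppara fell (-3.29), and the kinase subunit Prkaa1 (0.65) and the coactivator Pprc1 (1.41), which works with Nrf1, rose.

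**Figure D5:**
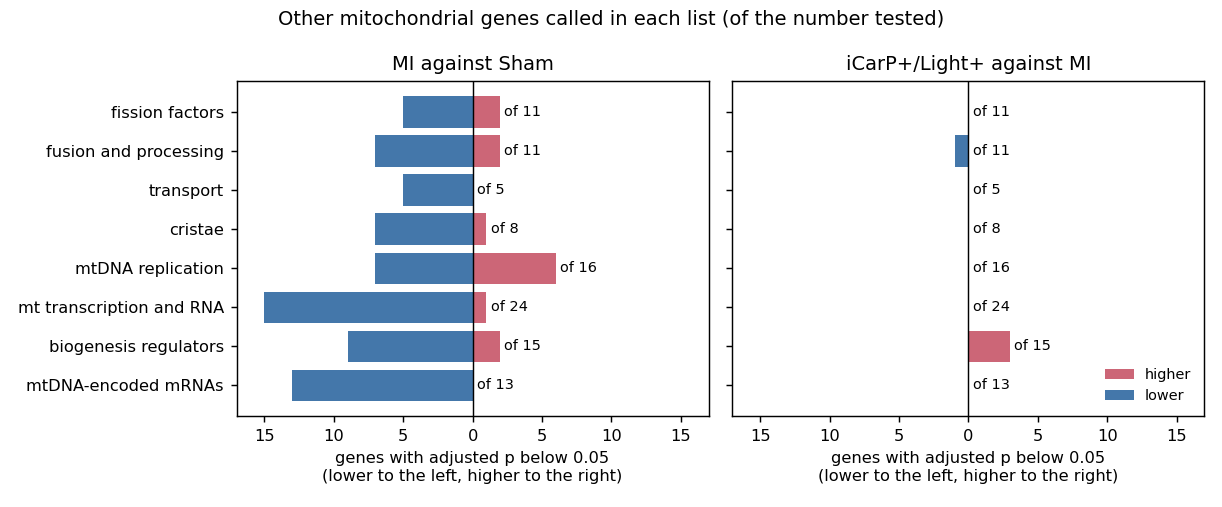
Number of genes with an adjusted p below 0.05 (edgeR, TMM) in each list of other mitochondrial genes, lower to the left and higher to the right of 0, with the number tested beside each bar. In MI against Sham all 13 mRNAs of the mitochondrial genome and all 5 transport genes fall, and in iCarP+/Light+ against MI only 1 fusion and processing gene and 3 biogenesis regulators are called.

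In iCarP+/Light+ against MI, 13.6% of all genes were called, 11.6% higher and 2.01% lower. None of the 11 fission, 5 transport, 8 cristae, 16 replication and 24 transcription genes or of the 13 mRNAs of the mitochondrial genome passed edgeR's test. At an unadjusted p below 0.05 there were 0, 0, 1, 1, 5 and 1 of them. The share of all genes at that cut is not given here, so these counts have no background. DESeq2 called 1 cristae gene and 1 replication gene lower and none in the other 4 lists, beside 1849 higher and 763 lower of all 15101 genes. With total counts alone, where the median of all genes was -0.25, edgeR called 2, 1, 2, 3, 11 and 0 of them lower and none higher. Under that scaling 2722 of all 15101 genes were lower and 1204 higher. Oma1 fell from 19.1 ± 5.34 CPM in MI to 11.0 ± 0.703 CPM in iCarP+/Light+ rats (SD, n = 4 each, log2 fold change -0.79, adjusted p = 0.0135, edgeR), beside 10.8 ± 2.05 CPM in Sham rats. It was the 1 gene called by edgeR of the 11 of fusion and processing, of which DESeq2 called 2 lower and edgeR with total counts alone 4 lower, with none higher.

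Of the 15 biogenesis regulators other than Nrf1, 3 were higher and none lower in iCarP+/Light+ against MI (median 0.13), beside 11.6% higher and 2.01% lower over all genes. DESeq2 called 4 higher and 1 lower, beside 1849 higher and 763 lower of all 15101 genes. Creb1, a transcription factor activated by cyclic AMP signalling, rose from 11.6 ± 2.16 to 25.4 ± 8.02 CPM (SD, n = 4 each, log2 fold change 1.12, adjusted p = 0.00714, edgeR). Gabpb1, a subunit of GA-binding protein, rose from 23.1 ± 2.22 to 39.1 ± 10.7 CPM (SD, n = 4 each, log2 fold change 0.76, adjusted p = 0.0109, edgeR). Its DNA-binding partner Gabpa, named after its values were seen, was at 60.4 and 61.4 CPM in MI and iCarP+/Light+ rats (log2 fold change 0.02, adjusted p = 0.914, edgeR). Esrra, a nuclear receptor of oxidative metabolism, rose from 88.1 ± 11.1 to 134.7 ± 21.2 CPM (SD, n = 4 each, log2 fold change 0.61, adjusted p = 0.0165, edgeR). With total counts alone Gabpb1 (0.50, adjusted p = 0.0595) and Esrra (0.35, adjusted p = 0.105, edgeR) did not pass. Under that scaling 1 regulator was higher and 2 were lower, beside 1204 higher and 2722 lower of all 15101 genes. The median was then -0.14, which was 0.11 relative to all genes.

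Genes whose pattern over the 12 rats was most like that of each member were taken by Pearson correlation of log2 CPM among 10722 protein-coding genes. The 12 points share the group differences, the scaling and the libraries, so these values are descriptions. Mfn1 was nearest to Fbxw5 (r = 0.998), to Uqcrc2 (r = 0.998), a subunit of respiratory complex III, and to Bzw2 (r = 0.997). Opa1 was nearest to Dkk4 (r = 0.993), Zfp955a (r = 0.991) and RGD1306502 (r = 0.991), and Dnm1l to Chmp4c (r = 0.984), Ankrd40 (r = 0.979) and Fam13a (r = 0.978). Fis1 was nearest to RGD1565784 (r = 0.984), Zfp637 (r = 0.974) and U2af1l4 (r = 0.973). Polrmt was nearest to Atp5f1b (r = 0.993), a catalytic subunit of the ATP synthase, Oaz2 (r = 0.992) and Tmem204 (r = 0.992). Tfam had the loosest neighbours, Ino80c (r = 0.933), Crym (r = 0.930) and Tarbp2 (r = 0.928). Polg was nearest to the fission factor Spire1 (r = 0.968), Mast3 (r = 0.964) and Clptm1l (r = 0.963), and Nrf1 to Ppp1r15b (r = 0.987), Gadd45b (r = 0.985) and Irf2bp2 (r = 0.984). Among the members themselves, Mfn1 went with Opa1 (r = 0.988) and with Polrmt (r = 0.979) and against Polg (r = -0.94), and Polg went with Nrf1 (r = 0.785).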

How the data were processed

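The authors deposited a table of counts for the 12 rats, raw reads per gene in whole numbers without normalization. Per the labels, libraries were made with a NEBNext Ultra kit, and the submitters' processing notes name HISAT2, featureCounts and rn6. Their versions, the strand setting and the annotation release are not given in the sources used here. Samples were grouped by their names, and no pair within a group was a copy (chi-square per gene 14.8 to 119 over 18 pairs, where counting noise gives 1). No batch is named, and one aligned with the groups cannot be told apart from treatment. The p-values measure the spread between these rats.

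The test was edgeR 4.0.16 under R 4.3.3, with filterByExpr (minimum count 10, 15101 genes), TMM and a quasi-likelihood fit of 1 mean per group to all 12 rats, with Benjamini-Hochberg adjustment. The CPM level of 3 counts was taken as the floor, for counting error only. The methods were run on simulated counts in which few genes changed, which does not test them under changes as broad as those seen here. Alternatives were DESeq2's size factors in edgeR, total counts alone, DESeq2 1.42.0, no filter, no mitochondrial genes, only the compared groups, a replicate block and each rat left out. Alternative scalings of the lists were chosen after seeing the data. The members and lists were chosen with earlier results of these data known. In each list the 2 highest and the 2 lowest called log2 fold changes were named, and for each member the 3 most alike protein-coding genes of at least 5 CPM. Beside the lists described, 0 of 9 endothelial markers rose and 8 fell, 1 of 10 fibroblast markers rose and 7 fell, and 0 of 7 red blood cell markers rose and 5 fell in MI against Sham. With total counts alone 1 rose and 3 fell, 1 rose and 5 fell, and 0 rose and 1 fell, respectively. Promoters were taken from RefSeq (GRCr8), and no coordinates were converted between it and rn6.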

Additional observations from a re-analysis of the deposited data

Results flagged for a closer look

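In 4 of the 24 groups of 4 rats (8 genes in 3 groups), 1 rat stood apart, with a gap to its nearest neighbour, as a share of the group's log2 CPM range, above Dixon's 95% critical value. Chance gives such a gap in about 1 in 20 independent groups, or 1.2 of 24. These groups are not independent, because the genes were measured in the same rats and went together (r = 0.945 for Mfn1 and Dnm1l). The count of 4 was therefore not tested against 1.2. Sham rat 3 was the highest of its group for Mfn1 (gap 0.871 of the range) and for Dnm1l (0.865). MI rat 1 was the highest of its group for Opa1 (0.834), and MI rat 4 was the lowest of its group for Polg (0.920). Each of these genes kept its call in MI against Sham without the rat that stood apart.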

How the results depend on the processing

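Of 168 log2 fold changes of the 8 members under 7 alternatives to the reported fit, 154 kept direction and side of the threshold, 6 lost the call, 1 gained it and 7 changed sign. With 1 rat left out, 274 of 288 kept both, 6 lost the call, 1 gained it and 7 changed sign. Members called in iCarP+/Light+ against MI went from 1 to 0 with only the compared groups and to 0 with the replicate block (1 at an unadjusted p below 0.05 in each, Nrf1), where Nrf1 was at 0.52 (adjusted p = 0.0885, edgeR). With 1 rat left out the members called numbered 7 to 8 in MI against Sham, 0 to 1 in iCarP+/Light+ against MI and 7 to 8 in iCarP+/Light+ against Sham. The block changed no other call of a member. Rats with the same number are different animals, and the deviations of the 9 same-numbered pairs correlated between -0.15 and 0.07, so the numbers were not taken as pairs.

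Dnm1l in iCarP+/Light+ against MI, at 0.0019 as reported, was -0.048 with DESeq2's size factors, -0.048 with DESeq2, -0.26 with total counts alone, -0.011 without a filter, -0.038 without mitochondrial genes and -0.037 with only the compared groups. Tfam in MI against Sham was 0.35 with total counts alone. With 1 rat left out, log2 fold changes in iCarP+/Light+ against MI ran from -0.061 to 0.039 for Dnm1l, -0.20 to 0.050 for Fis1, -0.092 to 0.013 for Polg, -0.11 to 0.024 for Mfn1 and 0.38 to 0.61 for Nrf1. The cause was not tested. Total counts alone cannot change the order of the members within a rat, so the order of levels was not put to a test by that scaling. The number of rats, 4 per group, limits the precision, as the 95% intervals show.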
